A study of Mus musculus with 4 samples.

Results

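The lipid-sensing nuclear receptors and the proteins that relay their signal were examined in mouse soleus muscle with and without hormone-sensitive lipase. The group comprised the receptors Ppara, Ppard, Rxra, Rxrb, Rxrg and Esrra, the coactivators Med1 and Ncoa1, and the corepressors Ncor1 and Nrip1. Its members were taken by gene symbol from the platform annotation, using probe sets with exactly 1 symbol, and 9 of the 10 genes were matched, by 11 of the 12488 probe sets on the array. Ncor1 matched no probe set and was not analysed here.

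Soleus is a slow, oxidative calf muscle. Total RNA from wildtype animals and from HSL-null animals was measured on 4 arrays, 2 per genotype. All animals were females of 6 months, and both arrays of a genotype were technical duplicates of 1 pool of muscle from 5 mice. The comparison is therefore between 1 pool and 1 pool, no p-value was computed, and the spread between duplicates measures array error, not the variation between animals. HSL, encoded by Lipe, hydrolyses stored acylglycerols and cholesteryl esters. The sources used here give no strain, allele or diet.

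Nuclear receptors of this group are transcription factors that bind fatty acids or related lipids, or, as with the estrogen-related receptor Esrra, act without a known natural hormone. PPARs bind DNA as heterodimers with RXRs, which are also the partners of the oxysterol (LXR), retinoic acid and thyroid hormone receptors. A receptor that holds an agonist recruits coactivators, among them the p160 proteins and the Mediator complex, which contacts RNA polymerase. Corepressors such as Ncor1 are released. In oxidative muscle, PPAR and ERR targets cover fatty acid uptake, fatty acid oxidation and the respiratory chain.

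Values are linear intensities as deposited, scaled to a 2% trimmed mean of 100.1 on every array. For differences, values below 5.70 were raised to that floor and log2 was taken, and the difference is HSL-null minus wildtype. The filter kept the 6208 probe sets whose mean over the 4 arrays was at or above the median probe set (27.7). Each HSL-null array was set against each wildtype array, and a probe set is called separated when these 4 pairs all pointed the same way by 1.5-fold or more. Separation applied to 28 probe sets (0.451%), 14 higher and 14 lower in HSL-null. Pools are called not overlapping when the 4 differences had one sign, whatever their size, which held for 40.6% of probe sets above the filter. Lipe itself measured 71.4 and 70.2 in wildtype and 16.2 and 19.4 in HSL-null, a difference of -2.00 ± 0.13 (SE of duplicates). All 9 skeletal muscle markers were above the filter, with a summed intensity of 30355 to 32816 per array. The ratio of 3′ to 5′ signal was 0.688 and 0.706 in wildtype and 0.816 and 0.823 in HSL-null for beta-actin, and 0.955 and 0.927 against 0.922 and 0.912 for Gapdh.

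Of the 11 member probe sets, 10 (8 genes) were above the filter, and the single one below it was that of Ppard. Med1 was the only member separated between the pools, and it was higher in HSL-null. The other 9 probe sets above the filter differed by -0.14 to 0.26, 3 above 0 and 6 below (3074 and 3134 of all 6208). Of the 9, 6 differed by less than their own SE, as did 49.9% of all probe sets above the filter. The median size of the difference over these 9 was 0.12, against 0.10 over all probe sets above the filter. With Med1, 4 of the 10 did not overlap, 3 higher and 1 lower, which is near the 40.6% of all probe sets (19.5% higher and 21.1% lower). That count was 8 without wildtype array 1 or HSL-null array 1 and 6 without either other array, since fewer pairs then had to share a sign. The share of all probe sets was not computed with an array left out, so these counts cannot be set against 40.6%.

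**Figure D1:**
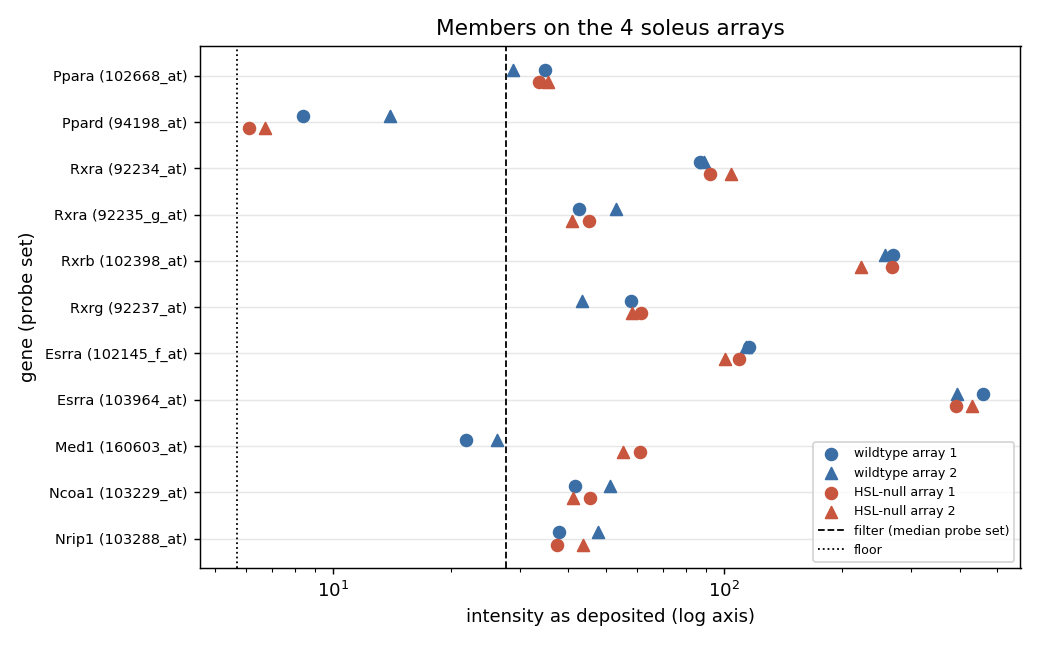
Intensity of each member probe set on the 4 arrays (log axis), with wildtype in blue, HSL-null in red, array 1 as a circle and array 2 as a triangle. The dashed line is the filter at 27.7 and the dotted line the floor at 5.70. The wildtype points of Med1 (21.9 and 26.2) lie below the filter and its HSL-null points (60.8 and 55.3) above it, and all 4 points of Ppard lie between the floor and the filter.

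Among the receptors, Ppara, the PPAR that drives fatty acid oxidation in liver, heart and muscle, measured 34.9 and 28.9 in wildtype and 33.7 and 35.4 in HSL-null. The pools overlapped, because wildtype array 1 lay between the HSL-null arrays, and wildtype array 2 stood below the rest. The difference was 0.12 ± 0.14 (SE of duplicates), and it was -0.01 without wildtype array 2.

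Ppard, the PPAR best known in skeletal muscle for oxidative fibres and endurance, measured 8.4 and 14.0 in wildtype and 6.1 and 6.7 in HSL-null. Every HSL-null value lay below every wildtype value, but all 4 were below the filter and the HSL-null values were close to the floor of 5.70. The log2 difference of -0.76 ± 0.37 was about as large as the gap between the wildtype duplicates (0.74), and the probe set was not separated. Among all probe sets other than controls, filter or no filter, 14.1% did not overlap and were lower. That share includes probe sets under the floor on all 4 arrays, which could not differ, unlike Ppard. Above the filter it was 21.1%.

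The 3 RXR genes encode the shared heterodimer partners. Rxra was read by a pair of probe sets that the annotation ties to one sequence record. The first (92234_at) measured 87.0 and 89.0 in wildtype and 91.8 and 104.3 in HSL-null, a difference of 0.15 ± 0.09 with no overlap. The second (92235_g_at) measured 42.6 and 53.0 in wildtype and 45.2 and 40.9 in HSL-null, a difference of -0.14 ± 0.17 with overlap. The probe sets thus had opposite signs, and no direction is given for Rxra.

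Rxrb, the broadly expressed RXR, measured 269.8 and 258.3 in wildtype and 268.2 and 223.7 in HSL-null. HSL-null array 2 stood below the other 3 arrays, and the difference was -0.11 ± 0.13. Rxrg, the RXR found mainly in muscle and brain, measured 57.8 and 43.3 in wildtype and 61.5 and 58.2 in HSL-null. The wildtype duplicates were 0.42 apart on the log2 scale and the lowest HSL-null value exceeded the highest wildtype value by 0.01, so that the difference of 0.26 ± 0.21 rests largely on wildtype array 2. Without that array it was 0.05. The Rxrg pools overlapped under 3 of the 4 other scalings, with median centring at 0.22, after quantile normalization at 0.24 and after cyclic loess at 0.25.

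Esrra, the estrogen-related receptor that acts with PGC-1 coactivators on mitochondrial genes, was read by a pair of probe sets. The brighter (103964_at) measured 459.7 and 394.4 in wildtype and 392.8 and 431.1 in HSL-null, with overlap and a difference of -0.05 ± 0.13. The other (102145_f_at), whose suffix marks probes that can be shared within a gene family, measured 115.7 and 114.0 in wildtype and 109.5 and 100.3 in HSL-null. Both HSL-null values lay below both wildtype values there, by -0.13 ± 0.06, the one difference among the 9 that exceeded its SE by over 2 times. Over all probe sets above the filter, 25.2% had a difference that large against their SE.

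The coactivators held the separated member. Med1 encodes the Mediator subunit also known as PPAR-binding protein, through which liganded nuclear receptors contact Mediator. It measured 21.9 and 26.2 in wildtype and 60.8 and 55.3 in HSL-null. Both HSL-null arrays were high and both wildtype arrays low, with no overlap. The wildtype mean was 24.0 ± 3.04 and the HSL-null mean 58.0 ± 3.89 (SD, n = 2 arrays each), a 2.42-fold higher level in HSL-null, and the log2 difference was 1.28 ± 0.15 (SE of duplicates). The 4 array pairs ranged from 1.08 to 1.47, while the duplicates differed by 0.26 in wildtype and 0.14 in HSL-null. Over the 11 alternatives in scaling, floor, arrays and pairing the difference lay between 1.06 and 1.40. By size it stood at rank 12 of 6208 probe sets, and at rank 5 among the higher ones.

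The level of Med1 bears on how far this reading can be taken. Separation upward was found in 0.226% of all probe sets above the filter and in 0.387% (6 of 1552) of the dimmest 25% of them, up to a mean of 52.8, to which Med1 belongs. The wildtype pool of Med1 was below the filter, so that the probe set was kept through its HSL-null values. Of 87 probe sets kept in that way, 5 (5.75%) were separated higher, and with both pools required to reach the filter no member was separated. Med1 had 1 probe set on the array, so that no second reading was at hand. The higher Med1 level stood beside the higher beta-actin 3′ to 5′ ratio and the slightly lower Gapdh ratio of the HSL-null pool, and their part in it was not tested.

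**Figure D2:**
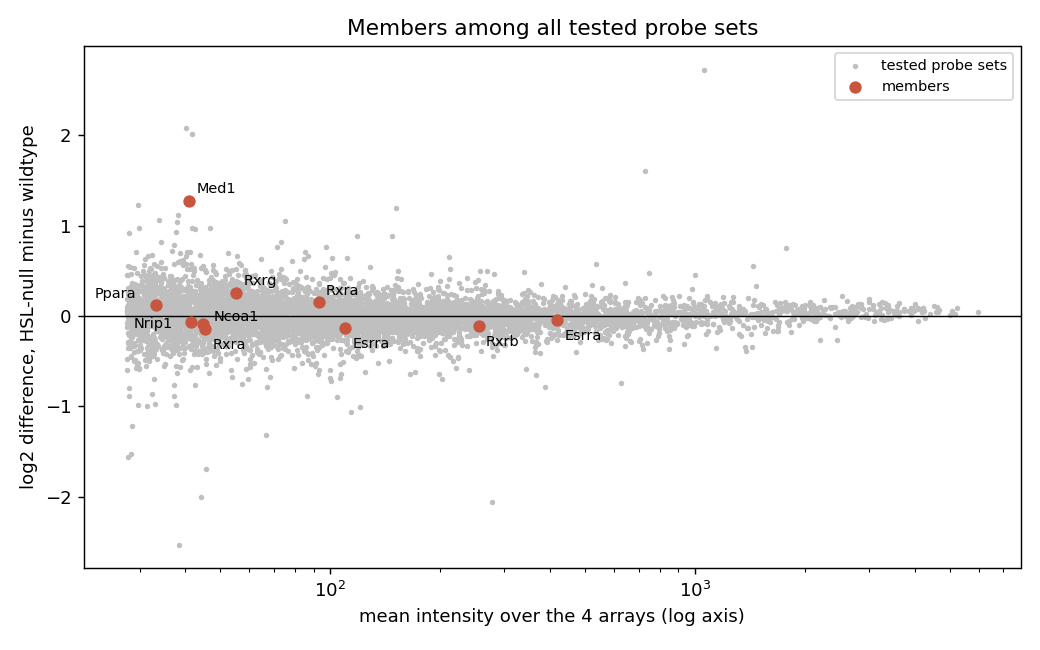
Log2 difference (HSL-null minus wildtype) against the mean intensity over the 4 arrays (log axis) for the 6208 probe sets above the filter (grey) and the 10 member probe sets among them (red). Med1 lies at 1.28 on the dim side of the plot, while the other members lie between -0.14 and 0.26 within the grey band.

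Ncoa1, the p160 coactivator SRC-1 with acetyltransferase activity, measured 41.5 and 51.2 in wildtype and 45.5 and 41.1 in HSL-null. The pools overlapped, wildtype array 2 was the highest of the 4, and the difference was -0.09 ± 0.17. Nrip1, the corepressor RIP140 that restrains oxidative metabolism in muscle and fat, measured 37.8 and 47.5 in wildtype and 37.5 and 43.6 in HSL-null. In each pool array 2 read above array 1, the ranges overlapped, and the difference was -0.07 ± 0.20. Without wildtype array 2 both had the other sign, Ncoa1 at 0.06 and Nrip1 at 0.10, and Nrip1 also without HSL-null array 1 (0.04). Rxrb had the other sign without HSL-null array 2 (0.02), the second Rxra probe set without wildtype array 2 (0.01), and the brighter Esrra probe set without wildtype array 1 (0.06) or HSL-null array 1 (0.02). No direction is given for these genes.

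**Figure D3:**
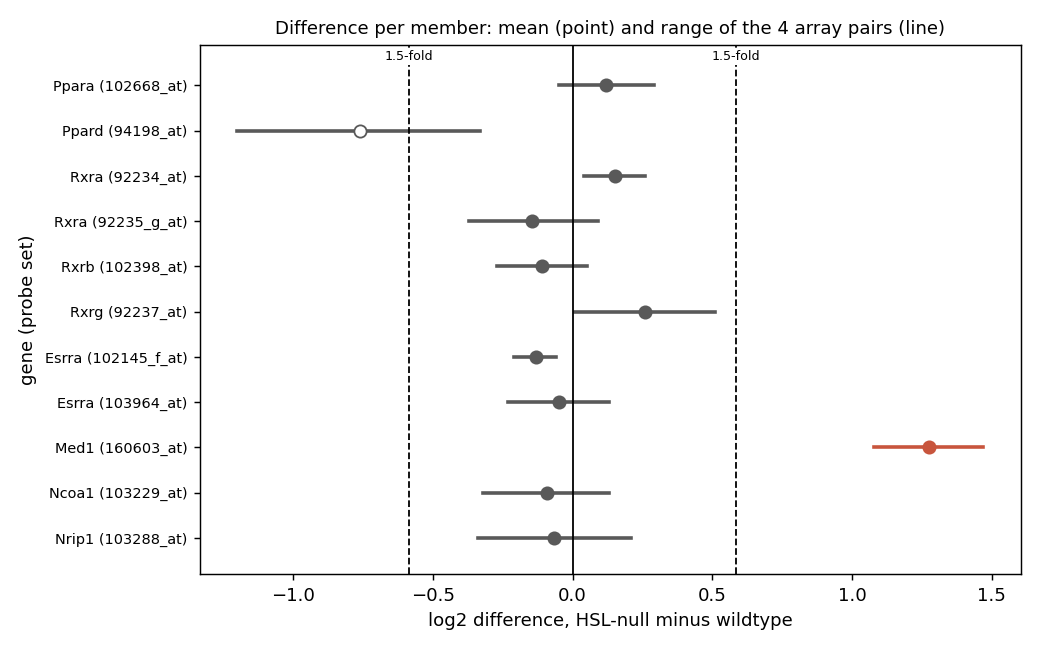
Mean log2 difference (point) and range of the 4 array pairs (line) for each member probe set, with dashed lines at 1.5-fold and an open point for the probe set below the filter. The line of Med1 alone (1.08 to 1.47) lies wholly outside the dashed lines, that of Ppard crosses the lower one (-1.20 to -0.33), and the others stay between them.

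The rest of the Mediator complex was set beside Med1. Of 31 other subunits and kinase-module genes, 12 had a probe set and 8 passed the filter. None of the 8 was separated, against 0.454% of all genes above the filter. Without overlap, 2 were higher and 2 lower (19.7% and 21.5% of all genes). The differences of the 8 ran from -0.30 to 0.31, with a median of 0.06 against -0.004 for all genes. Med24 measured 254.4 and 282.7 in wildtype and 227.0 and 238.5 in HSL-null (-0.20 ± 0.08). Med27 measured 449.5 and 212.6 in wildtype and 250.8 and 250.9 in HSL-null, with duplicates 1.08 apart in wildtype. Its probe set (104762_r_at) carries a suffix that marks relaxed probe selection. The highest difference, named after the values were seen, was that of the kinase-module subunit Med12, at 81.9 and 95.7 in wildtype and 107.1 and 112.2 in HSL-null (0.31 ± 0.12).

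Other coactivators showed no separated gene, against 0.454% of all genes above the filter. Of 20 in the list, 16 were matched and 11 passed the filter. Of these, 3 lay above 0 and 8 below, where 48.8% of all genes lay above 0, and the median was -0.04. The arginine methyltransferase Prmt1 measured 608.8 and 636.3 in wildtype and 633.9 and 612.4 in HSL-null, and the acetyltransferase Kat2b 504.8 and 515.8 against 498.9 and 494.6. Of 3 genes picked after their values were seen, Ppargc1a, the PGC-1 alpha coactivator of PPARs and Esrra, measured 10.8 and 9.3 in wildtype and 13.1 and 9.7 in HSL-null, below the filter and with overlap. The p160 relatives of Ncoa1 were also below it, Ncoa2 at 15.2 and 10.1 against 6.9 and 15.3, and Ncoa3 at 18.6 and 21.0 against 23.7 and 21.4.

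Other corepressors, listed because Ncor1 itself was not analysed, had 18 entries, of which 15 were matched and 13 passed the filter. None was separated, against 0.454% of all genes above the filter. Of the 13, 5 lay above 0 and 8 below, where 48.8% of all genes lay above 0, and the median was -0.08. Ctbp1, a corepressor that Nrip1 recruits, measured 635.3 and 607.3 in wildtype and 613.2 and 627.1 in HSL-null. Hdac5, a class II histone deacetylase, measured 293.9 and 334.7 in wildtype and 294.0 and 299.7 in HSL-null. Both pairs of pools overlapped. Subunits of the NCoR complex were named after their values were seen. Hdac3 differed by -0.17 ± 0.34 and Tbl1xr1 by -0.16 ± 0.06, while Tbl1x went the other way (0.22 ± 0.25).

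Among 40 other nuclear receptors, 31 were matched and 12 passed the filter. None of the 12 was separated (0.454% of all genes), and 4 were higher and 2 lower without overlap (19.7% and 21.5% of all genes). The median was 0.01 (-0.03 with median centring). The highest levels were those of Nr4a1, an immediate early orphan receptor, and Nr1d2, a heme-binding clock repressor. Nr4a1 measured 259.5 and 213.1 in wildtype and 313.4 and 335.8 in HSL-null (0.46 ± 0.15). Nr1d2 measured 276.2 and 292.5 in wildtype and 320.4 and 315.3 in HSL-null (0.16 ± 0.04). Both were higher on all 4 array pairs, and so was the related clock repressor Nr1d1, named after its values were seen, at 226.6 and 218.5 against 316.9 and 312.4 (0.50 ± 0.03). Of the receptors that can pair with RXR, 3 more were named after their values were seen. Thra, the thyroid hormone receptor, differed by 0.01 ± 0.06 on its brighter probe set (92348_at) and by -0.09 ± 0.08 on the other (99077_at). Nr1h3, the oxysterol receptor LXR alpha, differed by -0.07 ± 0.13. All of these probe sets overlapped between the pools, and no direction is given for Thra. Pparg, the adipocyte PPAR, was below the filter at 17.3 and 11.7 in wildtype and 10.8 and 8.8 in HSL-null, lower on all 4 array pairs.

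The targets of the receptors were then examined. Of 34 PPAR targets, 25 were matched and 22 passed the filter. None was separated, against 0.454% of all genes above the filter, but 19 lay above 0, against 48.8% of all genes. Without overlap, 11 were higher and 2 lower, beside 19.7% higher and 21.5% lower among all genes above the filter. The median was 0.10 against -0.004 for all genes. With median centring, which moved the median of all probe sets to -0.036, the list median was 0.07 with 7 higher without overlap. Of all 6208 probe sets, 851 were then higher without overlap, against 1208 as deposited. With quantile normalization the list median was 0.06 with 10 higher (1250 of all probe sets), and with cyclic loess 0.09 with 11 (1272). Acaa2, a thiolase of mitochondrial beta-oxidation, measured 3323.4 and 3171.6 in wildtype and 3572.1 and 3493.5 in HSL-null (0.12 ± 0.04). Fabp3, the muscle fatty acid-binding protein, measured 3250.9 and 3021.1 in wildtype and 3264.4 and 3264.5 in HSL-null (0.06 ± 0.05).

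The PPAR targets with the largest differences were picked after their values were seen. Acot1, a cytosolic acyl-CoA thioesterase, measured 41.6 and 39.0 in wildtype and 54.3 and 51.7 in HSL-null (0.40 ± 0.06). Angptl4, a secreted inhibitor of lipoprotein lipase, measured 35.5 and 37.9 in wildtype and 41.1 and 51.0 in HSL-null (0.32 ± 0.16). Pdk4, the kinase that shuts pyruvate dehydrogenase, measured 2198.3 and 2031.4 in wildtype and 2382.9 and 2392.9 in HSL-null (0.18 ± 0.06). All 3 were higher on every array pair, and all 3 by less than the 1.5-fold threshold. Also picked after their values were seen were 4 more. Ucp3 (0.07 ± 0.05) was likewise higher on every pair, while Cd36 (-0.06 ± 0.04) and Acaa1a (-0.06 ± 0.02) were the 2 lower ones. Acadvl, an acyl-CoA dehydrogenase of muscle mitochondria, read 0.3, 0.3, 2.4 and 0.5 on the 4 arrays, and a low reading was not taken as absence of a transcript, here or for Ppard.

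ERR targets also lay mostly above 0. All 15 on the array, of 20 listed, were above the filter, and none was separated, against 0.454% of all genes. Without overlap, 5 were higher and 0 lower (19.7% and 21.5% of all genes). The median was 0.08, and 14 lay above 0, against 48.8% of all genes. Median centring left 10 above 0 (median 0.05), quantile normalization 9 (0.03) and cyclic loess 12 (0.05). Of all 6208 probe sets, 2483, 3100 and 3108 lay above 0 under these scalings, against 3074 as deposited. The 9 skeletal muscle markers, 7 of them above 0, had a median of 0.04. It was 0.01 with median centring, 0.00 with quantile normalization and -0.01 with cyclic loess. Slc25a4, the muscle ADP/ATP carrier, measured 3845.2 and 3693.1 in wildtype and 4248.4 and 3799.7 in HSL-null. Atp5a1, an ATP synthase subunit, measured 3472.7 and 3185.8 in wildtype and 3447.2 and 3438.9 in HSL-null. Both overlapped between the pools. Sdhd (0.16 ± 0.04) and Idh3a (0.15 ± 0.04), named after their values were seen, were the highest.

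LXR targets lay mostly below 0. All 9 on the array, of 12 listed, were above the filter, and 7 were lower and 0 higher without overlap (21.5% and 19.7% of all genes), with a median of -0.22 (-0.26 to -0.20 over the scalings). Fasn, the fatty acid synthase, was the single separated gene, at 162.7 and 159.0 in wildtype and 84.9 and 75.8 in HSL-null. Scd1, a desaturase, measured 736.8 and 835.4 in wildtype and 521.5 and 420.7 in HSL-null (-0.74 ± 0.18). Outside fatty acid synthesis, Apoe, a lipoprotein component, measured 222.2 and 227.0 against 186.4 and 159.9 (-0.38 ± 0.11), and the cholesterol exporter Abcg1 72.0 and 65.8 against 63.7 and 53.7 (-0.23 ± 0.14). The 2 above 0, both with overlap, were its relative Abca1, at 59.8 and 61.5 against 65.4 and 60.7 (0.06 ± 0.06), and the phospholipid acyltransferase Lpcat3 (0.01 ± 0.16). Scd1, Apoe, Abcg1, Abca1 and Lpcat3 were named after their values were seen.

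Markers of other cells and fibre types were set beside these lists. Among all genes above the filter, 19.7% were higher and 21.5% lower without overlap, 0.454% were separated and 48.8% lay above 0. Of 8 white adipocyte markers, 6 were on the array with none at 0, and their summed intensity was 535 to 542 in wildtype and 397 to 399.8 in HSL-null. Of the 4 above the filter, 1 (Adipoq) was separated lower, 2 more were lower without overlap and 1 overlapped. Of 8 fast fibre markers all were on the array, summing to 13680.4 to 14852 in wildtype and 17692 to 18044 in HSL-null. The rise in that sum came mostly from 3 separated genes (Myh4, Actn3 and Pvalb), while 4 of the 8 overlapped and the list median was 0.08. Myh4 measured 279.2 and 277.3 in wildtype and 1897.1 and 1781.6 in HSL-null. Its difference of 2.72 ± 0.05 stood at rank 1 of 6208 probe sets by size. The 6 fibroblast markers on the array summed to 3448 to 3483 in wildtype and 3939 to 4072 in HSL-null, all 6 higher without overlap and none separated. The 3 erythroid markers on the array, also higher without overlap and not separated, summed to 2464 to 2564 in wildtype and 2675 to 2791 in HSL-null. Of 7 endothelial markers 6 lay below 0 (median -0.12), 1 of them without overlap, while Flt1 was higher without overlap (0.21 ± 0.09). Flt1 was named after its values were seen. Macrophage (median -0.07) and Schwann cell (0.08) markers mostly overlapped. The part of these cells and fibre types in the levels of Med1 or of the PPAR, ERR or LXR targets was not tested. In pooled whole muscle, fewer cells of a type and less RNA per cell cannot be told apart.

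**Figure D4:**
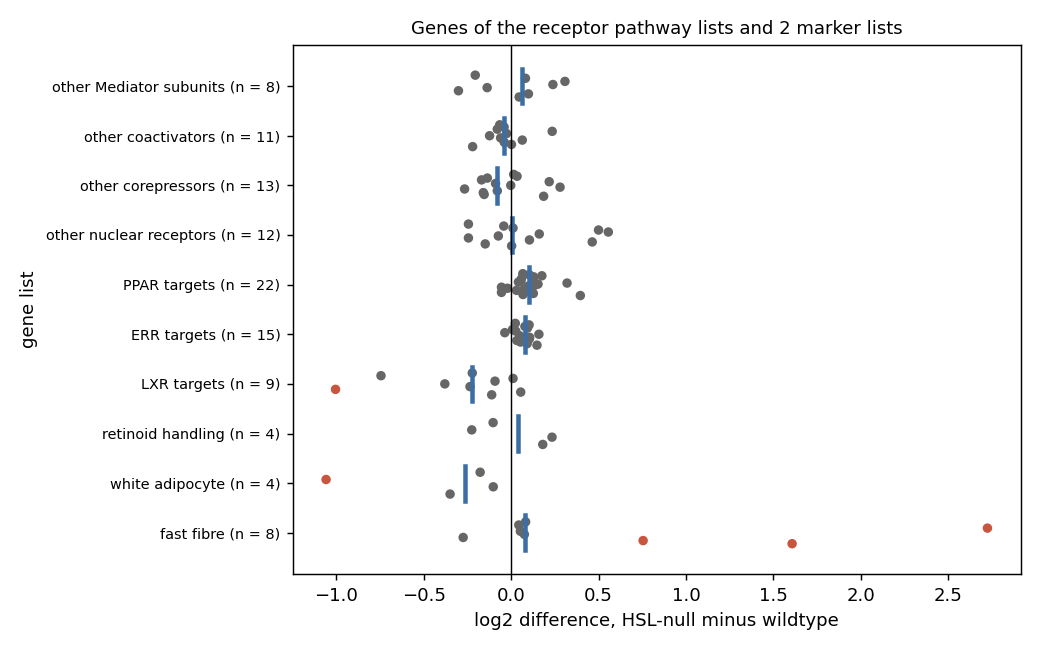
Log2 difference (HSL-null minus wildtype) of each gene above the filter in the 8 receptor pathway lists and 2 marker lists, with separated genes in red and the list median as a blue bar. The medians of PPAR targets (0.10) and ERR targets (0.08) lie just right of 0 and that of LXR targets (-0.22) left of it.

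Genes that handle retinoids, the source of RXR and RAR ligands, completed the pathway, since HSL also hydrolyses retinyl esters. Of 18, 12 were matched and 4 passed the filter. Of these 4, 2 were higher and 2 lower without overlap (19.7% and 21.5% of all genes), and none was separated (0.454%). Aldh1a1, which makes retinoic acid, measured 997.1 and 998.8 in wildtype and 1123.6 and 1139.1 in HSL-null (0.18 ± 0.01). Dhrs3, a retinal reductase, measured 95.2 and 89.6 in wildtype and 87.8 and 84.2 in HSL-null (-0.10 ± 0.05). Rbp4, the retinol carrier of plasma that is also made by adipocytes, was below the filter at 26.0 and 21.3 in wildtype and 13.9 and 10.1 in HSL-null (-0.99 ± 0.27), and was named after its values were seen.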

How the data were processed

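The deposited table holds 1 linear intensity per probe set and array. The authors' intensity values were already scaled, as their equal trimmed means show. The sources used here name no software and no background correction. In the platform annotation 10855 probe sets carried 1 symbol, 396 several and 1237 no entry. Of these, 10839 were matched by gene ID to RefSeq (GRCm38.p6), used for names only. The 66 control probe sets were left out. Members and lists were chosen with earlier results of these data known. In a list, the probe set with the highest mean represented its gene. Separated genes were named (at most 4), otherwise the 2 with the highest mean, and all others are said to have been picked after their values were seen. Intensities carry SDs over 2 arrays, and log2 differences carry SEs from the duplicates. The rule for separation was also tested on simulated data. Alternatives were 4 scalings (median, trimmed mean, quantile, and cyclic loess in limma 3.58.1 under R 4.3.3), other floors, filters and fold thresholds, single arrays left out, a block for the replicate number, and another choice of probe set per gene. Python 3.11.15, numpy 2.4.6 and pandas 2.3.3 were used. Array error is estimated from 2 arrays per genotype, and with 1 pool per genotype the variation between animals cannot be estimated. Across probe sets above the filter, duplicates correlated at 0.987 and 0.988, and arrays of different genotypes at 0.983 to 0.986.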

Additional observations from a re-analysis of the deposited data

How the results depend on the processing

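Med1 stayed the single separated member under every alternative but 2: there were 0 with the filter at the 75th percentile, and 0 with both pools at or above the filter, an alternative chosen after seeing the data. With the filter at the 75th percentile, 1 member probe set did not overlap, and leaving out an array gave 6 to 8. The share of all probe sets that did not overlap was not computed for these settings or for the replicate block. Over all probe sets, 28 separated became 175 with no filter, 10 with the filter at the 75th percentile, 226 at a threshold of 1.2-fold, 14 at 2-fold and 18 with both pools at or above the filter. Leaving out an array gave 81 to 109 (109 and 81 without wildtype arrays 1 and 2, 94 and 85 without HSL-null arrays 1 and 2), as fewer pairs must then pass. Separated genes of the pathway lists numbered 1, but 3 with no filter, 5 at 1.2-fold, 0 at 2-fold, 2 with every probe set of a gene counted and 1 to 3 without an array. Arrays share only a number: deviations of same-numbered arrays correlated at -0.09, and with the replicate number as a block 1 member, 35 probe sets and 1 list gene were separated and 6 member probe sets did not overlap. With the floor at the median of the table, which lies above both wildtype values of Med1, its difference was 1.06. Low signal limits Med1 and Ppard.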

Other observations

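Some nuclear receptors known mainly from other organs read above the filter in these muscle pools. Whether that signal came from their own transcripts was not tested. Nr5a1, the steroidogenic factor of adrenal and gonad, measured 206.7 and 214.6 in wildtype and 202.4 and 253.5 in HSL-null, with overlap. Nr1i3, the constitutive androstane receptor of liver, measured 41.7 and 31.0 in wildtype and 56.9 and 49.1 in HSL-null, a difference of 0.56 ± 0.24 (SE of duplicates) with no overlap, on a probe set whose suffix marks relaxed probe selection. Below the filter, Nr4a2, an immediate early relative of Nr4a1, measured 11.1 and 11.3 in wildtype and 24.7 and 19.6 in HSL-null (0.97 ± 0.17). These genes were picked after their values were seen.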
